A study of Homo sapiens with 6 samples.

Results

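Imprinted genes are expressed from the copy inherited from only 1 parent. The choice is set by DNA methylation of control regions in the egg or sperm, and the unmethylated copy of such a region often serves as an active promoter. The 9 genes described here are H19, IGF2, KCNQ1OT1, DLK1, MEG3, SNRPN, PEG10, PEG3 and GNAS. They were taken by name, not by a measured value, and each was given the span of its gene on the genome build hg19 with 10 kb on either side. The peaks that overlapped these 9 windows are described: 19 of the 51091 H3K27ac peaks of H69M, 25 of the 38255 of H69, 22 of the 37853 H3K27me3 peaks of H69M and 12 of the 21638 of H69. These totals cover chromosomes 1 to 22 and X. On hg19 the spans lie on chromosome 11 for H19 (2016406 to 2019065, minus strand), IGF2 (2150342 to 2170833, minus) and KCNQ1OT1 (2661768 to 2721228), and on chromosome 14 for DLK1 (101193202 to 101201467, plus) and MEG3 (101292445 to 101327360, plus). SNRPN lies on chromosome 15 (25068794 to 25223870, plus), PEG10 on chromosome 7 (94285637 to 94299007, plus), PEG3 on chromosome 19 (57321445 to 57352096, minus) and GNAS on chromosome 20 (57414773 to 57486247, plus). Exons and introns were not used here, so a peak is placed by its distance from the start or end of a span.

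H69 (NCI-H69) is a line of small cell lung cancer, and H69M is a line derived from it, per the labels. Whether H69M is a single clone is not given in the sources used here. Chromatin immunoprecipitation with sequencing was done on 1 library per line for H3K27ac, a mark of active promoters and enhancers, and on 1 for H3K27me3, the mark written by Polycomb repressive complex 2. No agent is named in the labels for either line, and the input libraries of both lines were not analysed here.

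The data are lists of peaks with a position and a score set by the authors, which starts at about 50 and whose definition is not given. It is used below to rank a peak within its own list, and scores of different lists do not measure a change. Read depth is unknown. A list from a deeper library can hold more and wider peaks. Over all peaks H69M had 1.59 times the H3K27ac length of H69 and 1.62 times the H3K27me3 length. The H69M lists held more peaks of both marks. The median width in H69M was greater for H3K27ac (1149 bp against 966 bp) and smaller for H3K27me3 (156 bp against 185 bp). A part of depth in this was not tested. With 1 library per group there is no spread between cultures, and no test between the lines was made. Peaks also do not tell the parental copies apart, nor 1 copy of a gene from more. The cell type was not checked against markers here.

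H3K27ac was listed at all 9 loci in both lines, and most of it lay on the same ground. H3K27ac covered 47.7 kb of the 576 kb of windows in H69M and 41.4 kb in H69, and 35.9 kb was common to both. This was 75.3% of the H69M length and 86.9% of the H69 length. H3K27me3 was sparse, with 4.42 kb in H69M and 2.74 kb in H69, of which 0.913 kb was common. It was listed at 6 loci in H69M and at 4 in H69, and MEG3 and PEG10 had none in either line. IGF2 held 14 of the 22 H3K27me3 peaks in H69M and 7 of the 12 in H69.

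As a share of the windows, H3K27ac made up 8.28% in H69M and 7.18% in H69, against 2.53% and 1.59% of the chromosomes as far as the last peak of any list. H3K27me3 made up 0.766% in H69M and 0.475% in H69, against 0.262% and 0.162%. The windows were chosen around genes, and the chromosomes also hold long stretches without genes. The ratio of H69M to H69 over the 9 loci was 1.15 for H3K27ac and 1.61 for H3K27me3. Without IGF2 these were 1.23 and 1.06. The H3K27me3 ratio over the 9 loci was close to the 1.62 over all peaks. The 1.06 was a balance of loci. H19, PEG3 and GNAS had H3K27me3 in H69M only (0.256, 0.150 and 0.387 kb). DLK1 (0.227 kb in H69M and 0.688 kb in H69), KCNQ1OT1 (0 and 0.180 kb) and SNRPN (0.191 and 0.273 kb) had more in H69.

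**Figure D1:**
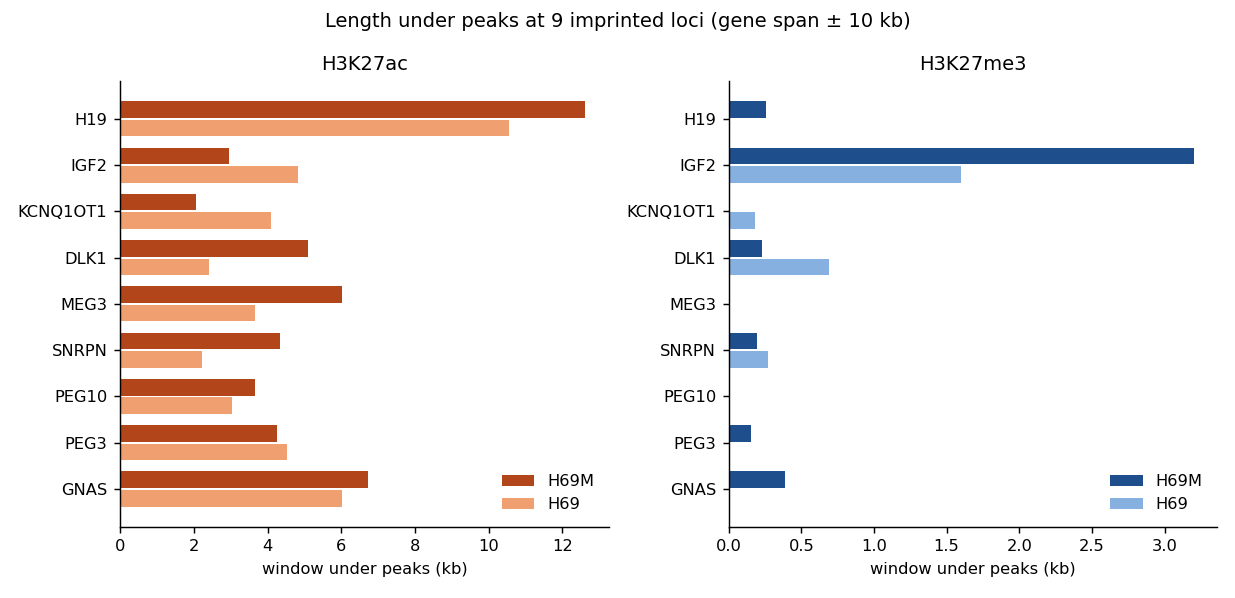
Length of each window (gene span with 10 kb on either side) under H3K27ac peaks (left) and H3K27me3 peaks (right), in kb, with H69M as the dark bar above H69 as the light bar and 1 library per bar. H3K27ac at DLK1 reached 5.10 kb in H69M and 2.40 kb in H69, and H3K27me3 at IGF2 3.20 kb and 1.60 kb.

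Only DLK1 passed a 2-fold difference in H3K27ac length, with 5.10 kb in H69M and 2.40 kb in H69, a ratio of 2.12. Among the 24418 tiles of 50 kb across the chromosomes with any H3K27ac, 41.7% passed 2-fold in that direction, against 1 of the 9 windows. Tiles with H3K27ac in H69M only count as passed, whereas all 9 windows had it in both lines. The windows also differ from the tiles in length. The 41.7% is therefore not a like background, and the lower share is not shown to be a trait of these loci. None of the 9 passed 2-fold lower in H69M, where the tile share was 9.94%, with the same limits. KCNQ1OT1 passed it without the flanks (ratio 0.339), and IGF2 with equal numbers of peaks in the lists (0.493). Without the flanks H19 passed 2-fold higher in H69M (1.28 kb in H69M and 0.619 kb in H69, ratio 2.06), and DLK1 no longer did (1.05). KCNQ1OT1 lay just inside that limit with 2.06 kb in H69M and 4.10 kb in H69, a ratio of 0.502. SNRPN lay just inside the upper limit with 4.34 kb in H69M and 2.23 kb in H69, a ratio of 1.95. The other ratios were 1.65 at MEG3, 1.21 at PEG10, 1.20 at H19, 1.12 at GNAS, 0.940 at PEG3 and 0.611 at IGF2.

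Nearly all H3K27ac peaks of these loci had a counterpart in the other line. In H69M 1 of 19 peaks had no overlapping H69 peak (5.26%, exact 95% binomial interval 0.133 to 26.0), against 48.4% of all H69M H3K27ac peaks. In H69 3 of 25 had no overlapping H69M peak (12%, 2.55 to 31.2), against 22.5% of all. These intervals hold for counting error alone, and neighbouring peaks are not independent. Sharing goes with the score in these lists: none of the 8 locus peaks of H69M with a score of 1000 or more was without a counterpart (upper limit 36.9%), against 6.54% of all such H69M peaks. Of the 6 with scores from 300 to 1000, also none was (upper limit 45.9%), against 37.2% of all in that class. In H69 none of the 8 peaks at 1000 or more was (upper limit 36.9%), against 0.614% of all, and 2 of the 9 under 100 were, against 48.9%. From 300 to 1000, 1 of the 4 H69 peaks was (25%, 0.631 to 80.6), against 6.27% of all, and from 100 to 300 none of the 4 was (upper limit 60.2%), against 24.2%.

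**Figure D2:**
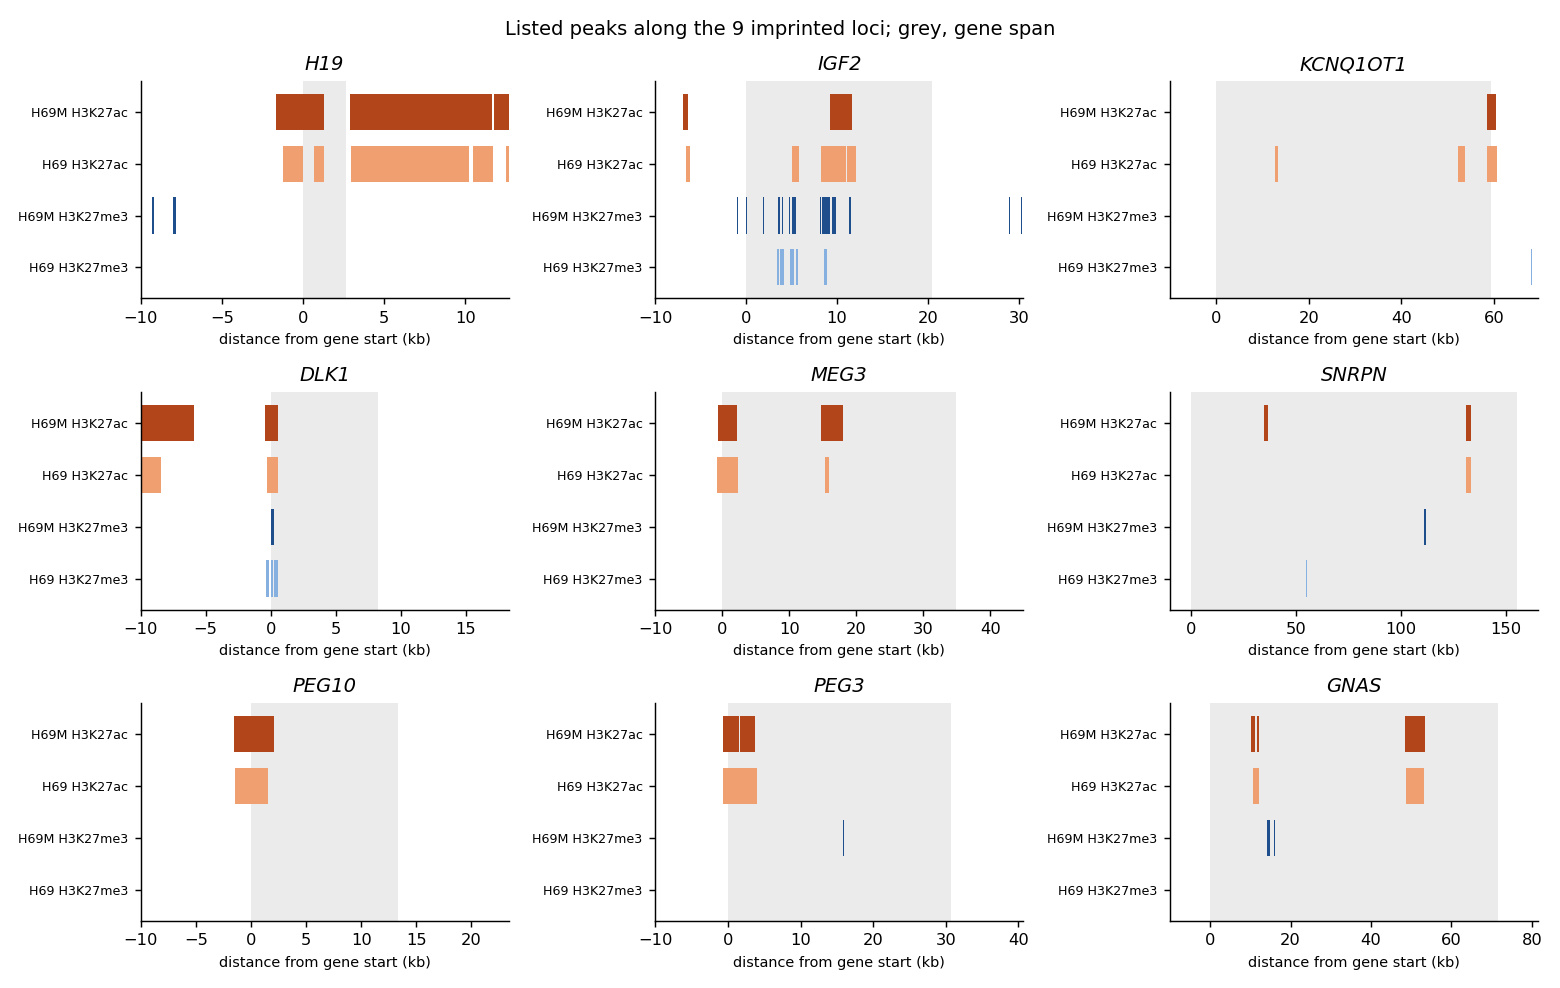
Listed peaks along each locus, with H69M above H69 for each mark, against the distance from the gene start in kb in the direction of transcription. Grey marks the gene span, KCNQ1OT1 is drawn from its lower-coordinate end, and very narrow peaks are drawn at a minimum width. Most H3K27ac blocks stand at the same places in both lines, and blue H3K27me3 marks gather at IGF2. H3K27ac peaks without a counterpart stand at SNRPN in H69M and at KCNQ1OT1 and IGF2 in H69.

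PEG10 and PEG3, both expressed from the paternal copy, had H3K27ac over their starts in both lines. PEG10, a gene derived from a retrotransposon that the placenta needs, had 1 H3K27ac peak in each line. It lay at chromosome 7 94284076 to 94287724 in H69M, with the score 3100 at which the list piles up, and at 94284192 to 94287218 in H69, with 2598. Both covered the gene start, and the H69 peak lay wholly inside the H69M peak.

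PEG3, which encodes a zinc finger protein, had 2 H3K27ac peaks in H69M and 4 in H69 that covered almost the same ground, 4.26 kb and 4.54 kb, with 4.17 kb common. The peak over its start ran from chromosome 19 57350527 to 57352718 in H69M (score 1624) and from 57351272 to 57352779 in H69 (score 1387). The second H69M peak lay at 57348373 to 57350444 (526). The other H69 peaks lay at 57348152 to 57348734 (55.3), 57348748 to 57350602 (454) and 57350628 to 57351218 (69.3). The 4 H69 peaks thus listed nearly the same stretch in smaller pieces. A single narrow H3K27me3 peak, 150 bp wide, was listed in H69M at 57336123 to 57336272 (66.99) and none in H69.

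KCNQ1OT1 is a long noncoding RNA read against the direction of the channel gene KCNQ1. It is known to silence neighbouring genes on the same copy, and its promoter is the control region of that domain. The span used here carries a plus sign, whereas the RNA is known to be read the other way, so its promoter belongs at the higher-coordinate end. That end, position 2721228 of chromosome 11, lay under an H3K27ac peak in both lines, from 2720228 to 2722286 in H69M (score 1577) and from 2720219 to 2722379 in H69 (score 2751). The ends of these peaks differed by 9 bp and 93 bp. No peak lay within 1 kb of the lower end in either line.

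H69 had 2 further H3K27ac peaks inside KCNQ1OT1, at 2714063 to 2715410 (score 314) and 2674544 to 2675134 (74.6). Neither had a counterpart in H69M within 1 kb. The first ranked above 57.4% of the H69 list, and only 6.27% of all H69 peaks with scores from 300 to 1000 lacked a counterpart. H3K27me3 was listed once in H69, over 180 bp at 2729740 to 2729919 (66.3), and not in H69M.

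SNRPN encodes a protein of the spliceosome that is abundant in brain, and its transcript runs on through the Prader-Willi region. Upstream exons lie far before its main promoter, which it shares with SNURF inside the imprinting centre, so the start of the span is not the main start. The H3K27ac peak common to both lines lay deep in the span, from 131 to 133 kb after its start. It ran from chromosome 15 25199775 to 25202197 in H69M (score 1372) and from 25199853 to 25202077 in H69 (659), with all of the H69 peak inside the H69M peak.

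The only H69M H3K27ac peak of the 9 loci without an H69 counterpart also lay in SNRPN, at 25103539 to 25105453 (score 181). It was 1915 bp wide and ranked above 44.1% of its list, and 65.1% of all H69M peaks with scores from 100 to 300 had no counterpart. H3K27me3 was listed once per line at places apart from each other, at 25179911 to 25180101 in H69M (91.7) and 25123445 to 25123717 in H69 (76.1).

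GNAS encodes the alpha subunit of the stimulatory G protein and, from other starts, transcripts that are imprinted in opposite ways. No peak of either mark lay within 1 kb of its first start in either line. The main H3K27ac peak stood 48 to 53 kb inside, at chromosome 20 57463205 to 57468271 in H69M and 57463412 to 57467893 in H69, both with the score 3100. A smaller pair stood 10 to 12 kb inside. In H69M these were 57425017 to 57425976 (549) and 57426326 to 57427018 (77.2). In H69 they were 57425323 to 57426316 (241) and 57426330 to 57426870 (53.99). All 6 peaks overlapped a peak of the other line, so the lines shared the layout of this locus.

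H3K27me3 at GNAS was listed in H69M and not in H69. The 3 peaks were 120 to 146 bp wide, at 57429018 to 57429163 (69.8), 57429234 to 57429353 (102) and 57430629 to 57430749 (53.8). They lay beside, not under, the smaller H3K27ac pair. Of all H69M H3K27me3 peaks with scores under 100, 87.2% had no H69 counterpart, and of those from 100 to 300, the class of the second GNAS peak, 59.3%.

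MEG3 had H3K27ac at its first start, GNAS had none there, and SNRPN had it only far inside its span. The promoters of MEG3, SNRPN and GNAS are shown for this contrast. For SNRPN the start shown is not that of the span, and whether it lies under a peak was not examined. RefSeq's table on GRCh38.p14 held 14 promoters of 4 of the 9 genes, 250 bases before and 50 after a start. The peaks are on hg19, and these promoters were not placed among them by coordinate. Shown are the first start of MEG3 (chr14:100825858-100826157, plus strand), the SNRPN start that is also that of SNURF (chr15:24954737-24955036, plus strand) and the first start of GNAS (chr20:58839498-58839797, plus strand). Capitals mark TGCCGC on either strand, the hexamer that the protein ZFP57 binds in methylated form at control regions of imprinted genes.
MEG3: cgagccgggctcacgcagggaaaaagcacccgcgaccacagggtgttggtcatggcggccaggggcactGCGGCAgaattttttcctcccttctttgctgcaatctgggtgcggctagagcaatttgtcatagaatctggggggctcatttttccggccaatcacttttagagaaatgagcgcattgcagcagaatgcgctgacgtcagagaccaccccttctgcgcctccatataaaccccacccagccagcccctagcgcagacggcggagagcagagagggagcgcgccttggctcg
SNRPN: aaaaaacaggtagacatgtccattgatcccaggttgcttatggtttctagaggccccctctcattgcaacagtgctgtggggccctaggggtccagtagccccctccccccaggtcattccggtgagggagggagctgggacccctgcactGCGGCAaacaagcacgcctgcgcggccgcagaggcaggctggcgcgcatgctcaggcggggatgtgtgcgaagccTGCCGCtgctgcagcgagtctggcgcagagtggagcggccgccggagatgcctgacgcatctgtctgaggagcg
GNAS: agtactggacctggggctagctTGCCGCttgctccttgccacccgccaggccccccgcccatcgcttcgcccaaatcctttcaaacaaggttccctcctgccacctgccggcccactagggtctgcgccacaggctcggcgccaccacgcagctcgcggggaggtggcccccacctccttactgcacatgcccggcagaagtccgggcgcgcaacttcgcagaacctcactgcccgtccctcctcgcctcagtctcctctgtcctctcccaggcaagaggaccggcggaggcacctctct

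The hexamer was found once at this MEG3 start, 2 times at the SNRPN start and once at the GNAS start. It was present in 6 of the 14 promoters, 3 of which are overlapping MEG3 starts, and in 16.7% of all 35116 promoters in the table. It was the only motif searched. These 3 promoters held 19, 18 and 21 CpG dinucleotides, against a median of 14 per promoter. The promoters not shown varied more. The other SNRPN starts held 7, 2 and 11, the H19 start 6, the other MEG3 starts 17 and 18, and the other GNAS starts 10 to 43. Neither the H19 start nor any of the other GNAS starts held the hexamer. A match of letters is a description of the sequence only.

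DLK1 and MEG3 share an imprinted domain on chromosome 14. DLK1, a membrane protein related to the Notch ligands, is expressed from the paternal copy, and MEG3, a long noncoding RNA, from the maternal copy. At the start of MEG3 H3K27ac ran from 101291823 to 101294658 in H69M (score 992) and from 101291684 to 101294724 in H69 (635). The H69M peak lay wholly inside the H69 peak. A second peak inside the gene was wider in H69M, at 101307228 to 101310419 (3192 bp, score 468), than in H69, at 101307829 to 101308441 (613 bp, 55.8). Its width ratio of 5.21 was the highest of the 11 H3K27ac peaks of the 9 loci that matched exactly 1 peak of the other line. Of these 11 pairs, 8 were wider in H69M and 3 narrower, with a median ratio of 1.18. Over all H3K27ac peaks the median width was also greater in H69M, 1149 bp against 966 bp in H69. Such pairs were not counted over the whole lists, so this is not shown to be a trait of these loci.

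Upstream of DLK1 an H3K27ac peak ran from 101182170 to 101187315 in H69M (5146 bp, score 2665) and from 101182729 to 101184769 in H69 (2041 bp, 1372). Both began outside the window, and the H69M peak reached 2546 bp closer to the gene. The 2-fold difference at DLK1 rested on this 1 peak, since within the gene span alone the H3K27ac lengths were 0.550 kb in H69M and 0.526 kb in H69. The start of DLK1 carried both marks in both lines. H3K27ac there was weak, at 101192766 to 101193751 in H69M (103) and 101192895 to 101193727 in H69 (93.7).

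H3K27me3 at the DLK1 start was listed as 1 peak in H69M, 101193206 to 101193432 (75.3). In H69 it was listed as 3, 101192849 to 101193082 (77.8), 101193203 to 101193375 (50.6) and 101193452 to 101193732 (56.6). These 4 peaks all overlapped the H3K27ac peak of their own line. The H3K27me3 lengths were 0.227 kb in H69M and 0.688 kb in H69, a ratio of 0.330.

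Between the windows of DLK1 and MEG3, over 70.98 kb, H3K27ac covered 12.2 kb in H69M (6 peaks) and 9.73 kb in H69 (7 peaks), and H3K27me3 was not listed. The widest peak there had a score of 3100 in each line and ran from 101245707 to 101252931 in H69M and from 101248575 to 101253253 in H69. It was 7225 bp wide in H69M and 4679 bp in H69. The peaks upstream of DLK1, at its start, between the windows and inside MEG3 thus covered a greater length in H69M. The peak at the MEG3 start covered a shorter one, 2836 bp in H69M and 3041 bp in H69. Between the windows the ratio of covered length was 1.26, against 1.59 over all H3K27ac peaks. The width ratios of single matched peaks were 1.18 at the DLK1 start, 2.52 upstream of DLK1 and 5.21 inside MEG3. The 1.59 is a ratio of total lengths that also holds unmatched peaks, so it is no reference for these widths.

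**Figure D3:**
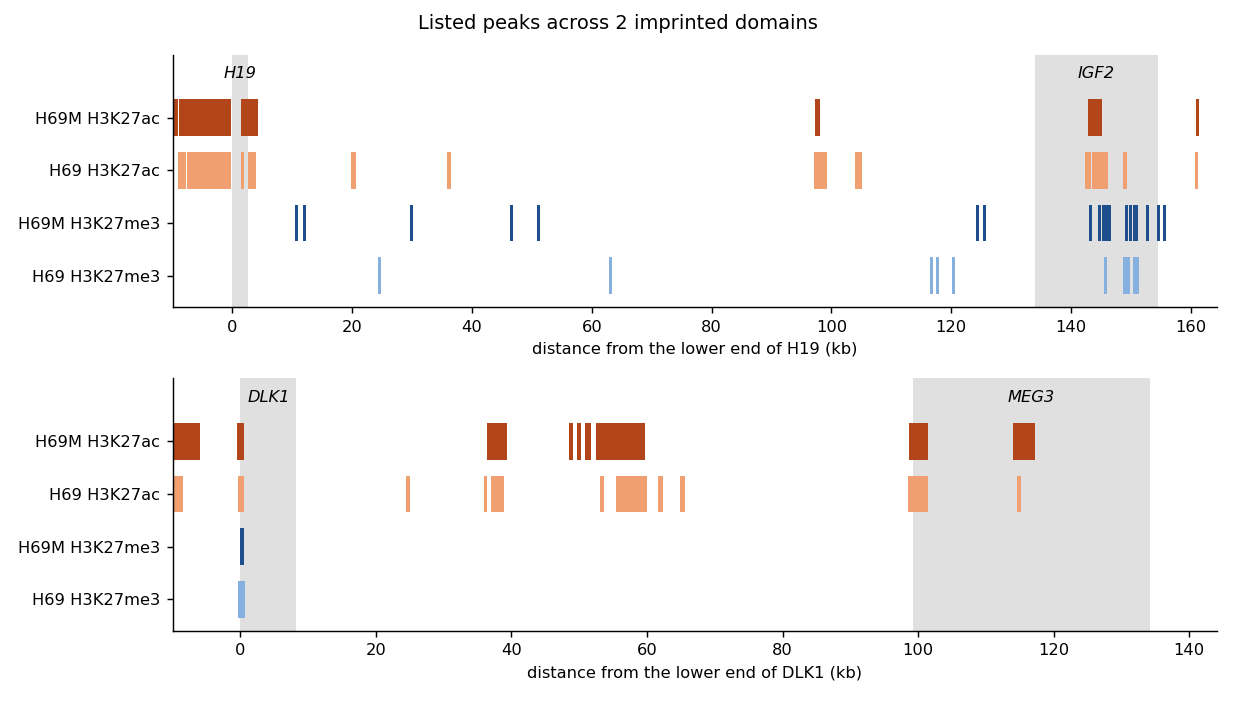
Listed peaks of the H19 and IGF2 domain (top) and the DLK1 and MEG3 domain (bottom), with H69M above H69 for each mark, against the distance in kb from the lower-coordinate end of H19 or DLK1. Grey marks the gene spans, and peaks under 0.5 kb are drawn at 0.5 kb. Between H19 and IGF2 H69M has 1 H3K27ac peak and H69 has 5.

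H19 and IGF2 form the best known imprinted pair. H19 is a noncoding RNA expressed from the maternal copy, and IGF2 a growth factor expressed from the paternal copy. A control region between them binds CTCF on the maternal copy, and enhancers beyond H19 are shared by both genes. H19 had the most H3K27ac for its size, 55.7% of its window in H69M and 46.6% in H69. Most of it lay after the end of the gene, at chromosome 11 2008603 to 2016179 in H69M and 2008842 to 2016132 in H69, both with a score of 3100.

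A still wider peak stood at the edge of the H19 window, 1997376 to 2007329 in H69M and 1996823 to 2006535 in H69, also at 3100. A small peak stood between these blocks, at 2007421 to 2008583 in H69M (150) and 2007350 to 2008616 in H69 (164). The start of H19 lay under a peak in H69M, 2017789 to 2020747 (460). In H69 the same ground held 2 peaks, 2017777 to 2018395 (72.5) and 2019068 to 2020316 (282), and the start fell between them, 3 bp from the second. H3K27me3 at H19 was listed in H69M only as 2 narrow peaks, at 2026911 to 2027048 (58.7) and 2028248 to 2028365 (52.1), and in H69 not at all.

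Over the 111 kb between the H19 and IGF2 windows H3K27ac was shorter in H69M. It covered 0.881 kb in 1 peak in H69M and 4.71 kb in 5 peaks in H69, a ratio of 0.187. The 1 H69M peak, 2113659 to 2114539 (119), lay inside the strongest H69 peak, 2113499 to 2115615 (478). Of the tiles with H3K27ac, 9.94% passed 2-fold in that direction. The other 4 H69 peaks had scores of 51.0 to 124 and no counterpart, as had 48.9% of all H69 H3K27ac peaks with scores under 100 and 24.2% of those from 100 to 300. H3K27me3 there was also shorter in H69M, with 0.356 kb in 3 peaks in H69M and 1.01 kb in 5 peaks in H69, a ratio of 0.351. Of the tiles with H3K27me3, 27.6% passed 2-fold in that direction. The lines had no H3K27me3 peak in common there. Over all peaks 81.1% of the H69M and 67.4% of the H69 H3K27me3 peaks had no counterpart, so this lack of common peaks is near the background.

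At IGF2 H3K27ac was shorter in H69M than in H69 and H3K27me3 was longer. H3K27ac covered 2.96 kb in H69M and 4.84 kb in H69, within 2-fold. H3K27me3 covered 3.20 kb in H69M and 1.60 kb in H69, and the ratio of 2.004 was just past 2-fold, but 1.67 with equal numbers of peaks in the lists, 1.71 without flanks and 1.31 with 50 kb on either side. IGF2 was 1 of 4 loci past 2-fold higher in H69M, with H19, PEG3 and GNAS, against 48.5% of the 11243 tiles with any H3K27me3. The other 2 called loci, KCNQ1OT1 and DLK1, were lower in H69M, against 27.6% of tiles. Apart from IGF2, the called loci had at most 3 H3K27me3 peaks in a line. The calls of H19, PEG3 and GNAS were against 0 kb in H69, and that of KCNQ1OT1 against 0 kb in H69M. Against 0 kb any listed peak passes 2-fold. Of these 6 calls, that of GNAS held under all 5 other settings of flank, score, list length and joining. With scores of 100 or more it rested on 1 peak of 0.12 kb. The call of DLK1 held under all but the score limit of 100. Those of KCNQ1OT1 and PEG3 held under 3 of the 5, and those of H19 and IGF2 under 2.

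IGF2 has several promoters along its span, and its main H3K27ac peak lay inside the gene, with no H3K27ac peak within 1 kb of the start of the span in either line. The main H3K27ac peak ran from 2159166 to 2161551 in H69M (683) and from 2159877 to 2162564 in H69 (1190). Its higher end stopped 1013 bp short of that in H69. H69 had further peaks at 2158757 to 2159679 (110), which the H69M peak overlapped, and at 2165015 to 2165761 (79.7), which had no H69M counterpart. A weak peak before the start, 2177214 to 2177784 in H69M (50.9) and 2177027 to 2177507 in H69 (69.3), was common.

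Of the H69M H3K27me3 peaks at the 9 loci, the 3 with the highest scores lay inside IGF2. They stood at 2161554 to 2162166 (373), 2165324 to 2165783 (365) and 2160910 to 2161396 (295), and ranked above 98.1%, 98.0% and 97.3% of the H69M list. Another H69M peak, 2162187 to 2162433, had a score of 102. The one nearest the start of the span covered it, at 2170741 to 2170861 (63.4). All 7 H69 peaks at IGF2 were under a score of 100, from 55.8 to 94.05. The highest, 2167170 to 2167451, ranked above 83.1% of its list and was also the widest and the nearest to the start. The peak at 2161554 and that at 2165324 overlapped weak H69 peaks, so H3K27me3 was listed at both places in both lines. The peak at 2160910 had no overlapping H69 peak.

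**Figure D4:**
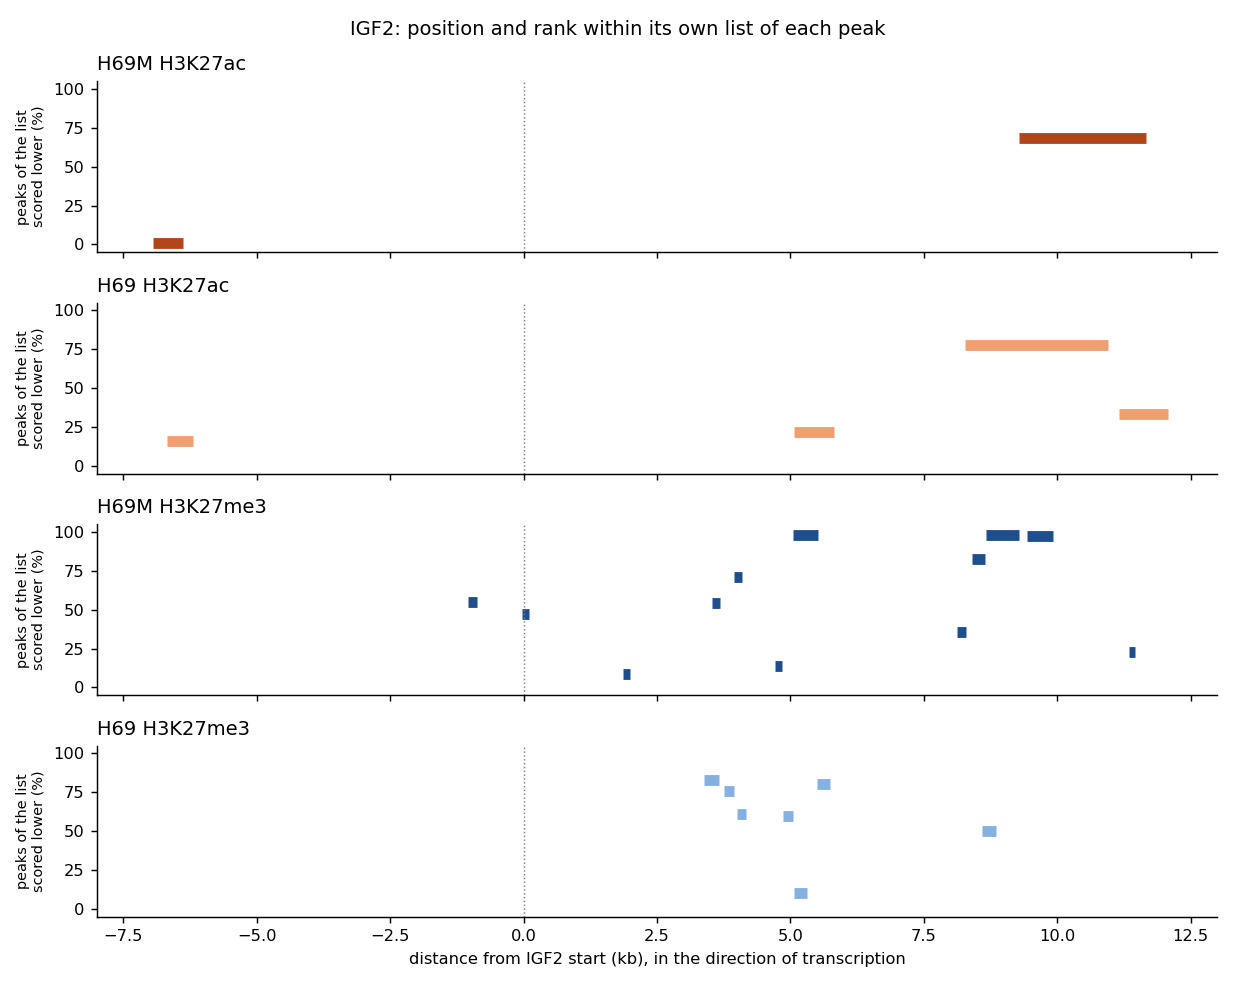
Peaks at IGF2, a panel for each list with H69M above H69, as bars from end to end against the distance from the gene start in kb, and by the percent of peaks in the same list with a lower score. Ranks of different lists are not a change in strength. In H69M 3 H3K27me3 peaks stand above 97.3% or more of their list at 5 to 10 kb, where H69 has H3K27ac peaks. The one at 9.4 to 9.9 kb also lies under an H69M H3K27ac peak. A further 2 H69M H3K27me3 peaks beyond 28 kb fall outside the axis.

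The strong H69M H3K27me3 peaks lay on ground that carried H3K27ac in H69. Of the 14 H69M H3K27me3 peaks, 6 overlapped an H69 H3K27ac peak and 2 an H69M one. Counted in bases, 59.7% of the H69M H3K27me3 length lay under H69 H3K27ac and 18.6% under H69M H3K27ac. The peak at 2161554 began just after the H69M H3K27ac peak ended, at 2161551, and lay inside the longer H69 peak. The peak at 2165324 overlapped the H69 H3K27ac peak that H69M lacked. The other strong peak, at 2160910, lay wholly under H3K27ac of both lines, so H69M listed both marks there. In H69, 3 of the 7 H3K27me3 peaks overlapped H3K27ac of H69 itself, 47.3% of the length, and none overlapped that of H69M.

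Over all 9 loci 3 of the 22 H69M H3K27me3 peaks overlapped H69M H3K27ac (13.6%, exact 95% binomial interval 2.91 to 34.9), against 3.5% of all H69M H3K27me3 peaks. With H69 H3K27ac 7 of the 22 did (31.8%, 13.9 to 54.9), against 2.78% of all. Among the 12 H69 peaks, 6 overlapped H69 H3K27ac (50%, 21.1 to 78.9), against 1.87% of all, and 3 overlapped H69M H3K27ac (25%, 5.49 to 57.2), against 4.63%. Each of these overlaps was at IGF2 or DLK1, where neighbouring peaks share a stretch. The 6 in H69 lay under 3 H3K27ac peaks, and the intervals take peaks as independent, which these are not. H3K27ac also covered more of the windows than of the chromosomes, 8.28% against 2.53% in H69M and 7.18% against 1.59% in H69. The shares over all peaks were not adjusted for this. The other 7 loci had no base under both marks in any pairing of the lists.

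Most H69M H3K27me3 peaks of the loci had no counterpart. In H69M 16 of 22 had no H69 counterpart (72.7%, 49.8 to 89.3), against 81.1% of all H69M H3K27me3 peaks, and in H69 6 of 12 had none (50%, 21.1 to 78.9), against 67.4%. These shares lay near the background of each list. All peaks with a counterpart were at IGF2 or DLK1. The H3K27me3 peaks of the loci, with or without a counterpart, had median widths of 146 bp in H69M and 235.5 bp in H69. Over all peaks these were 156 bp and 185 bp. The widest H3K27me3 peak of the loci was 613 bp in H69M and 282 bp in H69. H3K27ac peaks of the loci had median widths of 2386 bp in H69M and 1267 bp in H69, against 1149 bp and 966 bp over all.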

How the data were processed

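H3K27ac and H3K27me3 ChIP-seq libraries of H69M and H69, 1 each, were read with 38 nucleotides from paired ends, per the labels' protocols. Bowtie2, SAMtools 0.1.19 and hg19 are named in the submitters' processing notes. The deposited peak lists give a position, a name with the word MACS and a score whose definition is not given in the sources used here, nor are the caller's settings or use of input. Read counts were not used here, so depth is unknown.

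Peaks on chromosomes 1 to 22 and X were taken as 1-based intervals with Python 3.11.15, pandas 2.3.3 and SciPy 1.17.1. Length was clipped to each window, an overlap of 1 bp counted as shared, and intervals are exact (Clopper-Pearson). Interval counting was tested on simulated data. Differences were called at 2-fold in length, and the background is all 50 kb tiles with a peak. All 9 genes are named; peaks are named in full up to 5 per locus and list, otherwise by highest score, greatest width and nearness to the start, and others were chosen after their values were seen. The genes and lists were chosen with earlier results of these data known. Alternatives were other flanks, a score limit, equal numbers of peaks, joined peaks and other sharing rules. No annotation of hg19 was used beyond the 9 spans.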

Additional observations from a re-analysis of the deposited data

How the results depend on the processing

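Of 135 values recomputed under other settings, 106 stayed close to the reported value, 29 moved and 0 changed direction past 2-fold. Counts and shares have no direction to change. Of the recomputed locus ratios, only those of IGF2 H3K27me3, DLK1 H3K27ac and DLK1 H3K27me3 were past 2-fold as reported. The 0 therefore says little about the other values. Inside 2-fold, the H3K27ac ratio of PEG3 moved from 0.940 to 1.27 with scores of 100 or more. That of GNAS moved from 1.12 to 0.931 with 50 kb on either side. The H3K27ac length ratio over the 9 loci stayed between 1.10 and 1.30, and the H3K27me3 ratio between 1.16 and 1.69, except that it was 1.06 with IGF2 left out, a choice made after the data were seen. With 50 kb on either side, where the DLK1 and MEG3 windows overlap, there were 51 H3K27ac peaks in H69M and 60 in H69, 34 and 26 H3K27me3 peaks, 0 loci with H3K27ac and 2 with H3K27me3 at least 2-fold higher in H69M, and 29.4% of H69M H3K27ac peaks without a counterpart. With only scores of 100 or more, H69 had 16 H3K27ac peaks, and H3K27me3 had 5 in H69M and 0 in H69, so 100% of the H69M ones had no counterpart, 2 loci (IGF2 and GNAS) were higher and 0 lower, and no H3K27me3 ratio or H69 share could be had. Without flanks the 1 locus with H3K27ac 2-fold higher in H69M was H19 (2.06) in place of DLK1 (1.05), 1 locus (KCNQ1OT1) was 2-fold lower in H3K27ac, and 2 were higher and 1 lower in H3K27me3. With equal numbers of peaks 1 locus (IGF2) was 2-fold lower in H3K27ac and 2 (PEG3 and GNAS) were higher in H3K27me3. Joining peaks within 1000 bp left 14 H3K27me3 peaks in H69M and 5 in H69. A counterpart within 1000 bp left 16.7% of the H69 H3K27me3 peaks without one. The cause of these moves was not tested beyond what each setting does by construction. No paired analysis was possible because each group holds 1 sample. All 12 H69 H3K27me3 peaks of the loci have scores under 100, and depth is unknown, so a missing H3K27me3 peak does not show that the mark was absent.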
